A study of Mus musculus with 4 samples.

Results

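Lars2, the nuclear gene for mitochondrial leucyl-tRNA synthetase, was followed through testes taken at stage E13.5 from CD1 mouse embryos of wild-type genotype. It was chosen by its gene name, and its row was looked up in each of the 6 deposited pairwise tables: 1 gene of the 235 named genes, and 1 transcript of the 382 transcripts, in those tables. It was picked because it was lower in every exposed library, so its levels are a description and were not tested. The exposed libraries were ACE+ACE (labelled acetaminophen), ASP+ACE (labelled aspirin and acetaminophen) and IBU+ACE (labelled ibuprofen and acetaminophen), and the fourth was Control, with no treatment in the labels and the name EtOH inside the tables. Each group was 1 library from gonads dissected free of the mesonephros, so no difference below has a replicate check. How much of each drug was given, on which days, and whether embryos were pooled is stated in no source used here, so the groups are known by drug name alone. The question behind the study was what these pain relievers, met in the womb, do to testis formation.

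Mitochondrial leucyl-tRNA synthetase is made in the cytosol, enters the mitochondria and loads leucine onto the leucine tRNAs that the mitochondrial genome encodes. The mitochondrial ribosome needs those charged tRNAs to make the respiratory-chain subunits of that genome. In humans, inherited variants of the gene are a cause of Perrault syndrome, in which hearing loss goes with ovarian failure. As further background, part of the mouse Lars2 3′ UTR is known to resemble cytosolic large-subunit ribosomal RNA, the kind of RNA that ribosomal depletion, used for these libraries per the labels, is meant to remove.

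The libraries also differed in genes of other tissues. Of 12 liver markers, 9 were listed by the authors as lower in ACE+ACE, 2 as lower in ASP+ACE and 0 in either direction in IBU+ACE, each against Control. Over all 21922 protein-coding genes of GENCODE M21, 0.151%, 0.0502% and 0.0593% were listed as lower in ACE+ACE, ASP+ACE and IBU+ACE, and 0.379% as higher in IBU+ACE. Of 15 limb and skin markers, 0 were listed in either direction in ACE+ACE, 1 as lower in ASP+ACE and 11 as higher in IBU+ACE. Of 8 red cell markers, 2, 2 and 3 were listed as lower in ACE+ACE, ASP+ACE and IBU+ACE. Of 12 testis markers only Sox9 and Cst9 appear, both listed as higher in IBU+ACE; Sox9, which drives Sertoli cell fate, had 5.97, 5.22 and 10.04 FPKM in ACE+ACE, ASP+ACE and IBU+ACE, and 5.98 FPKM in Control. The tables hold called transcripts only, so absence from a table does not tell whether a gene was tested.

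Lars2 had 5.72 FPKM in ACE+ACE, 11.8 FPKM in ASP+ACE and 6.28 FPKM in IBU+ACE, against 44.8 FPKM in Control. FPKM are fragments scaled by the authors to transcript length and library size, and the read depth behind each value is unknown. Control stood alone at the top, ASP+ACE lay second, and IBU+ACE and ACE+ACE were close together at the bottom on the deposited scale. The exposed libraries held 12.8%, 26.2% and 14.0% of the Control level in ACE+ACE, ASP+ACE and IBU+ACE. On the log2 scale ACE+ACE differed from Control by -2.97 (7.84-fold lower), ASP+ACE by -1.93 (3.81-fold lower) and IBU+ACE by -2.84 (7.14-fold lower). Centred on the median of the 115 transcripts with a value above 0 in all 4 libraries, IBU+ACE over Control became -4.36. IBU+ACE over ACE+ACE turned to -1.70. These 115 are called transcripts, mostly chosen for being higher in IBU+ACE. Centring on them therefore cannot tell whether the closeness and order of these libraries rest on the authors' scaling. The 3 differences share the 1 Control library, so they are not separate observations of its level. In whole gonads, fewer cells that express a gene and less of its RNA per cell cannot be told apart.

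**Figure D1:**
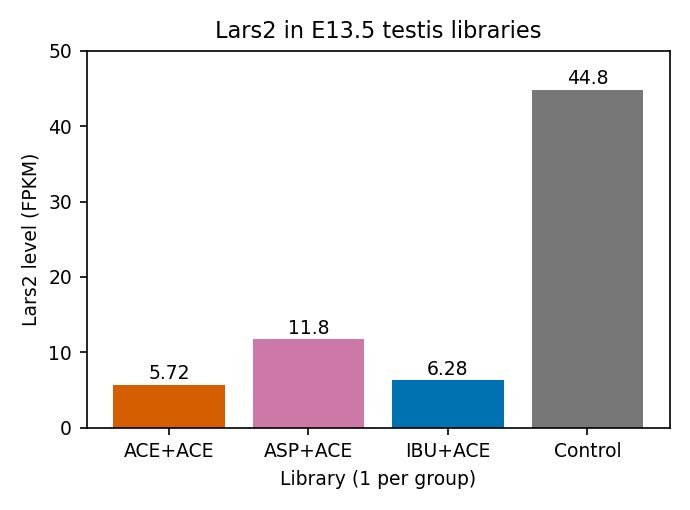
Lars2 level in FPKM (bars, axis from 0) in the libraries ACE+ACE, ASP+ACE, IBU+ACE and Control, 1 library per group and so without error bars. The exposed libraries lie between 5.72 and 11.8 FPKM, all below the Control library at 44.8 FPKM.

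Lars2 was in 5 of the 6 tables, as were only 2 other transcripts, and none was in all 6. The authors' deposited tables give it, as every other row, a p-value of 5e-05 and a q-value of 0.0310 from their test of 2 libraries, which carries no replicate variation and cannot rank transcripts. Between exposed libraries, Lars2 had 11.8 FPKM in ASP+ACE against 5.72 FPKM in ACE+ACE, a log2 difference of 1.04 or 2.06-fold higher. It had 6.28 FPKM in IBU+ACE against 11.8 FPKM in ASP+ACE, a log2 difference of -0.90 or 1.87-fold lower. Both of these pairs were listed. The pair not listed was IBU+ACE against ACE+ACE, 6.28 and 5.72 FPKM, a log2 difference of 0.14 on the deposited scale. Only 3 transcripts were listed as lower in both ACE+ACE and IBU+ACE than in ASP+ACE. Besides Lars2 they were an unnamed transcript of chromosome 3, described with the other unnamed transcripts, and an unnamed transcript of chromosome 7 (start 11141732) that was listed at 0 in ACE+ACE and IBU+ACE and had 0.658 FPKM in ASP+ACE and 1.05 FPKM in Control.

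A lower value was common among the rows listed for ACE+ACE and ASP+ACE and uncommon among those for IBU+ACE. Against Control, 74.6% of the 67 rows listed for ACE+ACE were lower, as were 65.9% of the 44 rows for ASP+ACE and 18.4% of the 185 rows for IBU+ACE; since Lars2 was chosen on these contrasts, nothing is read from its place among them. Between exposed libraries, 58.3% of 24 rows were higher in ASP+ACE than in ACE+ACE, and 8.05% of 174 were lower in IBU+ACE than in ASP+ACE. By the ratio of exposed library to Control, Lars2 was lowest of the 34 named transcripts that fell in ACE+ACE. It ranked 4 of 15 named transcripts in ASP+ACE, and 2 of 19 in IBU+ACE, after Chgb. With unnamed transcripts counted too, it ranked 11 of 50, 14 of 29 and 10 of 34 in ACE+ACE, ASP+ACE and IBU+ACE; of the rows ahead of it, 6, 5 and 6 were listed at 0 in the exposed library.

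The deposited Lars2 transcript spans chromosome 9, 123366940 to 123462664 on GRCm38, on the annotated plus strand. GENCODE M21 places the gene (ENSMUSG00000035202.8) at 123366927 to 123462664, so the end is the same and the deposited start lies 13 bases inside. Its longest annotated transcript has 21 exons and 3894 nt after splicing, of which 2706 nt code for protein before the stop codon at 123461676 to 123461678. The 5′ UTR has 199 nt, and the 3′ UTR has 986 nt, all in the last exon of 1166 nt. A total of 9 Lars2 transcripts are annotated, several with retained introns. Only 1 Lars2 transcript was listed, and which of the 9 it stands for is not known here. Since called transcripts alone were listed, its value need not be that of the whole gene. No other GENCODE gene overlaps it. The nearest are the pseudogene Scp2-ps2, 48928 bases upstream, and Limd1, 16041 bases downstream; neither was listed in any table. RefSeq places the non-coding gene Gm46137 within the span, and no source used here tells whether the authors counted reads by strand.

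In the longest annotated Lars2 transcript, the parts that occur elsewhere in the annotated transcriptome lay in the 3′ UTR. The other annotated Lars2 transcripts were not compared in this way. When that transcript was compared with every GENCODE M21 transcript, matches of at least 50 aligned bases outside Lars2 itself fell in 3 genes. All of the matches were in its last exon after the stop codon. AA474408, a transcript of unclear status on chromosome 7, matched 97 bases (123462003 to 123462099) at 94.8% identity and a further 50 bases (123461933 to 123461982) at 96% identity. Gm15564, a non-coding transcript on chromosome 16, matched 72 bases (123462048 to 123462119) at 98.6% identity. The matches to these 2 genes overlap and cover 167 bases, which is 16.9% of the 3′ UTR and 4.29% of the spliced transcript. Ifitm10 matched 70 bases nearer the end at 82.9% identity. Of the 230 named genes of the tables that have a GENCODE transcript, none besides Lars2 matched the stretches it shares with AA474408 and Gm15564. The Lars2 match was fixed beforehand, because those stretches were cut where they align to it. None of the 3 matching genes was in any table. This comparison was chosen after the values had been seen.

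**Figure D2:**
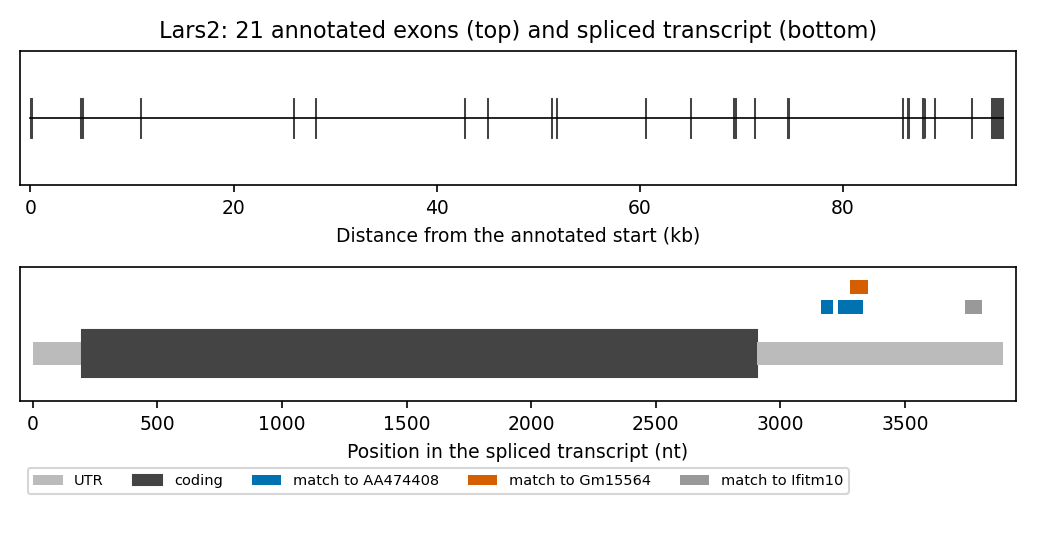
Map of Lars2: the upper panel shows the 21 exons (boxes, drawn no thinner than the line) by distance from the annotated start in kb, and the lower panel the spliced transcript by position in nt, with the coding part dark, the UTRs light and the stretches matching other annotated transcripts above it. The matches to AA474408 and Gm15564 overlap in the 3′ UTR, and no match lies in the coding part.

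A search of Lars2 against annotated ribosomal RNA found 0 matching bases. That search covered 363 transcripts, of which 356 have a ribosomal RNA type, nearly all short; only 1 of type rRNA reached 500 nt, at 1849 nt. Both mitochondrial ribosomal RNAs were in the set, but no full-length cytosolic large-subunit ribosomal RNA was among the sequences used, so the search says nothing of that RNA. Among the 230 named genes searched, 1 matched, Gm24222, which is itself annotated as rRNA and was listed only between ASP+ACE and IBU+ACE. Whether reads of ribosomal RNA were counted at the Lars2 locus was not tested.

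A total of 8 transcripts were listed as lower than Control in all 3 exposed libraries, and 3 of them have names: Lars2, Chgb and Apoa4. A further 4 were listed as higher in all 3. The 4 transcripts nearest to Lars2, by the root mean square difference of the 3 log2 fold changes over Control among 115 transcripts with a value above 0 in all 4 libraries, were all short, unnamed and outside annotated genes. Their distances were 0.160, 0.193, 0.195 and 0.316 on the log2 scale, against 0.767 for the next, Chgb. The median distance was 3.18 over the 115 transcripts with Lars2 left out. These are called transcripts, mostly chosen for being higher in IBU+ACE, so that median is no neutral yardstick. Every fold change over Control shares the Control library, so part of this likeness is that library's own values, and the measure was used to name transcripts, not to test them. The 4 were picked for being near to Lars2, so every likeness to it given for them restates that choice and supports nothing.

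The nearest, on chromosome 1 (102628205 to 102628327, 123 nt), had 219.9 FPKM in ACE+ACE, 535 FPKM in ASP+ACE and 219 FPKM in IBU+ACE, against 1759 FPKM in Control. The next, on chromosome 6 (3201436 to 3201565, 130 nt), had 38.7, 76.5 and 52.7 FPKM in ACE+ACE, ASP+ACE and IBU+ACE, against 299 FPKM in Control. The third, on chromosome 3 (5860338 to 5860774, 437 nt), had 33.2, 67.6 and 34.7 FPKM in ACE+ACE, ASP+ACE and IBU+ACE, against 224 FPKM in Control. As for Lars2, Control was highest and ASP+ACE second in each. The fourth, on chromosome 1 (136364885 to 136364971, 87 nt), had 1325, 2944 and 1175 FPKM in ACE+ACE, ASP+ACE and IBU+ACE, against 11901 FPKM in Control. For transcripts this short FPKM may not measure abundance, so these levels are not set against that of Lars2; the ratios between libraries of 1 transcript use the same length throughout. Across the 4 transcripts the level was 6.73 to 8.98-fold lower in ACE+ACE, 3.29 to 4.04-fold lower in ASP+ACE and 5.67 to 10.1-fold lower in IBU+ACE, each than in Control.

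The chromosome 3 transcript was listed in the same 5 tables as Lars2, in the same directions. Its ratio was 2.03 for ASP+ACE over ACE+ACE, where that of Lars2 was 2.06, and 0.514 for IBU+ACE over ASP+ACE, where that of Lars2 was 0.534. The other 3 short transcripts were not listed between exposed libraries, although their ASP+ACE over ACE+ACE ratios were 1.98 to 2.43. None of the 4 overlaps a GENCODE gene, and the nearest genes lie 6303 to 90548 bases away. Their sequences were not used here, so what they are is not known.

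**Figure D3:**
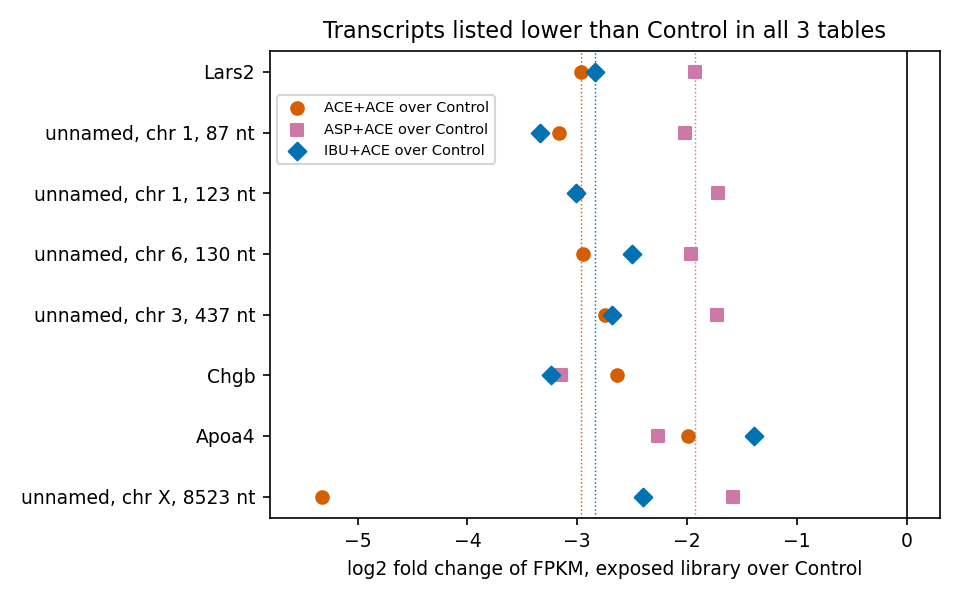
The 8 transcripts listed as lower than Control in all 3 tables, with the log2 fold change of FPKM of each exposed library over Control (points; circles ACE+ACE, squares ASP+ACE, diamonds IBU+ACE); dotted lines mark the values of Lars2. The 4 unnamed transcripts of 87 to 437 nt, the nearest to Lars2 by these same values, have ASP+ACE nearest to Control. So does the chromosome X transcript, which lies far lower in ACE+ACE, whereas Chgb and Apoa4 have another order.

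The other 3 transcripts that were lower throughout lay farther from Lars2, at distances of 0.767 to 1.40 on the log2 scale. Chgb, which encodes the secretory granule protein chromogranin B (chromosome 2, 132781278 to 132795079), had 0.115, 0.0809 and 0.0759 FPKM in ACE+ACE, ASP+ACE and IBU+ACE, against 0.719 FPKM in Control. Chgb was lower in ASP+ACE than in ACE+ACE, the opposite of Lars2, at levels under 1 FPKM. Apoa4, an apolipoprotein gene whose deposited locus (chromosome 9, 46240696 to 46243529) overlaps 3 annotated genes, had 0.438, 0.361 and 0.661 FPKM in ACE+ACE, ASP+ACE and IBU+ACE, against 1.74 FPKM in Control, and was highest of the exposed libraries in IBU+ACE. The unnamed transcript of chromosome X (105949694 to 105958216) had 0.0227, 0.305 and 0.173 FPKM in ACE+ACE, ASP+ACE and IBU+ACE, against 0.912 FPKM in Control. Its libraries stood in the same order as those of Lars2, at levels under 1 FPKM.

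Of the 115 transcripts with 4 values, 14 were below Control in all 3 exposed libraries, and 6 of these were not listed in all 3 tables: Afp, Apoa1, Slc4a1, Hbb-y, the snRNA gene Gm22513 and an unnamed transcript of chromosome 2. Afp, the fetal plasma protein alpha-fetoprotein, had 34.2, 67.8 and 112.6 FPKM in ACE+ACE, ASP+ACE and IBU+ACE, against 130.2 FPKM in Control, and Apoa1, of high-density lipoprotein, had 5.03, 9.20 and 17.8 FPKM in those exposed libraries against 18.3 FPKM in Control. Both were near Control in IBU+ACE, where Lars2 was not. Afp, Apoa1 and Hbb-y, an embryonic globin gene, completed the 10 transcripts nearest to Lars2, after Chgb, Apoa4 and the chromosome X transcript, at distances of 1.73, 1.82 and 1.98 on the log2 scale.

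On the deposited scale, the order of the libraries for Lars2 differed from that of each marker sum below. Over the 6 liver markers with 4 values, summed levels were 59.8, 134.9 and 227 FPKM in ACE+ACE, ASP+ACE and IBU+ACE, against 215 FPKM in Control. Over 9 limb and skin markers the sums were 7.70 FPKM in ACE+ACE, 5.94 FPKM in ASP+ACE and 88.6 FPKM in IBU+ACE, against 9.75 FPKM in Control. Over 3 red cell markers they were 2362 FPKM in ACE+ACE, 1825 FPKM in ASP+ACE and 1582 FPKM in IBU+ACE, against 3034 FPKM in Control. Lars2 was at 14.0% of Control in IBU+ACE, where the liver sum was above that of Control, and at 26.2% in ASP+ACE, where the limb and skin sum was lowest. The red cell sum, like Lars2, was below Control in every exposed library, though lowest in IBU+ACE and nearest to Control in ACE+ACE. Whether cells of any of these tissues had a part in the Lars2 values was not tested. None of the marker values in the tables was 0; several listed markers have no value in 1 or more libraries.

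**Figure D4:**
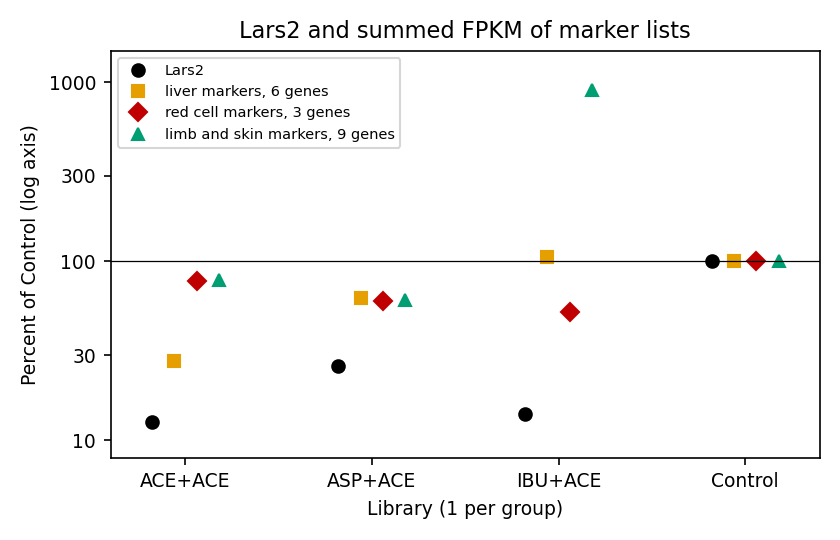
Lars2 and the summed FPKM of liver (6 genes), red cell (3 genes) and limb and skin (9 genes) markers in each library, as a percent of Control on a log axis, with points set side by side for legibility. Lars2 lies at 12.8, 26.2 and 14.0 percent in the exposed libraries, below each marker sum.

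Of the mitochondrial translation genes and cytosolic synthetases looked up, none but Lars2 appeared in any of the tables; cytosolic ribosomal proteins and translation factors were not looked up. Of 22 genes that load or process mitochondrial tRNAs for translation as synthetases or glutaminyl-tRNA amidotransferase subunits, 1 was listed, Lars2 itself. None was listed of 18 cytosolic synthetases, 22 factors of mitochondrial translation and RNA processing, 81 proteins of the mitochondrial ribosome or 17 genes of the mitochondrial genome, which include both mitochondrial ribosomal RNAs and both leucine tRNAs. Together 1 of these 160 genes, or 0.625%, was listed in at least 1 table, beside 0.871% of the 21922 protein-coding genes of GENCODE M21. With calls alone in the tables, levels of the others are not known here, and their absence does not show that they were unchanged.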

How the data were processed

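Total RNA was depleted of ribosomal RNA, made into stranded libraries and sequenced as paired reads of 75 nt, per the labels' protocols. Per the submitters' processing notes, the build was GRCm38 and the tools included TopHat2 2.1, Bowtie2 2.2.6 and Cufflinks 2.2.1, with SAMtools 1.3, bcl2fastq 2.17 and FastQC; no settings are stated. The authors deposited 6 tables of called transcripts with the values of 2 libraries (taken as FPKM from the layout; the headers name no unit), their log2 fold change (second library over first), p-value and q-value. The library named EtOH in the files was matched to Control as the 1 left after the drug names.

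Reading used pandas 2.3.3 and numpy 2.4.6 under Python 3.11.15, with decimal commas replaced by points; figures were drawn in matplotlib 3.10.9. Values of 1 library in several tables disagreed in 0 cases, and log2 fold changes recomputed from FPKM equalled the deposited ones within 1.09e-05. Starts were raised by 1 to count from 1. Of the 235 named genes, 230 had a GENCODE M21 transcript; these were compared by blastn 2.17.0 (word size 16, expect value 0.001, at least 50 aligned bases). Reading, counting, ranking and distances were tested on simulated tables. No test was run on the libraries, 1 per group, and depth is unknown.

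The members, gene lists and comparisons were chosen with earlier results of these data known. The text names Lars2, transcripts listed in 1 direction in all 3 comparisons with Control (named here where lower), the 10 nearest to Lars2 by profile, listed genes of the mitochondrial lists, flanking genes, and up to 3 listed markers per list; other genes are named after their values were seen. Alternatives were adding 1 or 0.1 FPKM, median centring, filters on FPKM, fold, length and name, and other match lengths.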

Additional observations from a re-analysis of the deposited data

How the results depend on the processing

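Lars2 stayed below Control in the 3 exposed libraries under each alternative tried, but this direction could hardly have changed. Adding the same FPKM to both libraries cannot alter the sign of a difference, and the median shifts were smaller than the Lars2 differences. The alternatives therefore bear on the size of the differences alone. In the order ACE+ACE, ASP+ACE and IBU+ACE over Control, the Lars2 log2 fold changes were -2.77, -1.85 and -2.65 with 1 FPKM added. With 0.1 FPKM added they were -2.95, -1.92 and -2.82. Centring on the median of the 115 transcripts with 4 values, which lay at -0.26, -0.21 and 1.52 in the same libraries, gave -2.71, -1.72 and -4.36; these are called transcripts, mostly chosen for being higher in IBU+ACE. ASP+ACE over ACE+ACE was 0.92, 1.03 and 1.01 with 1 FPKM, with 0.1 FPKM and centred, and IBU+ACE over ASP+ACE was -0.81, -0.89 and -2.59. IBU+ACE over ACE+ACE was 0.12 and 0.13 with 1 and 0.1 FPKM added, and turned to -1.70 when centred. Of the 8 transcripts lower in all 3 comparisons, 6 had at least 1 FPKM in the higher library of each pair. All 8 had a change of 1 or more on the log2 scale. By locus, 5 had 200 nt or more, and 3 had a name. Lars2 was among each, since its level, change, length and name already met these filters. Of the 4 that were higher, 3 met that FPKM filter, 1 reached that change, 3 had such a locus and 2 had a name. No row had a q-value of 0.01 or less. Without loci under 200 nt, Lars2 ranked 9 of 47, 10 of 23 and 8 of 31 falling rows in ACE+ACE, ASP+ACE and IBU+ACE. With at least 1 FPKM in the higher library, it ranked 6 of 39, 11 of 25 and 4 of 23. Lars2 bases matching annotated ribosomal RNA stayed at 0 with 25 or 100 aligned bases, and the named genes that match went from 1 to 0 at 100 bases. With 1 FPKM added, 9 of the 10 nearest transcripts, and all 4 short ones at the head, were shared. No paired analysis was possible because each group has 1 library. The read depth is unknown, so no interval can be put on any value, and 1 library per group leaves exposure, batch and the embryos sampled inseparable.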
